A study of Mus musculus with 17 samples.

Results

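The 9 genes described here encode enzymes of tyrosine breakdown (Hpd, Hgd and Fah), of branched-chain amino acid breakdown (Bcat1, Bcat2, Bckdha, Bckdhb and Dbt), and glycine N-methyltransferase (Gnmt). They were taken by gene symbol from a table of 42794 genes measured in mouse kidney, and each symbol matched 1 line. The list was selected on the FPKM values of these same libraries, already known when it was drawn up, so their levels and differences between groups are a description. No p-value is given for a member, and where a fit over all genes is used to count members, the count is part of that description and not evidence about them.

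Tyrosine is broken down by a chain of enzymes: a transaminase makes hydroxyphenylpyruvate, HPD turns it into homogentisate, HGD opens the ring of homogentisate, and FAH splits the last intermediate into fumarate and acetoacetate. Leucine, isoleucine and valine first lose their amino group to BCAT1 in the cytosol or BCAT2 in mitochondria, and the resulting keto acids are then oxidised by a mitochondrial dehydrogenase complex whose decarboxylase is built from BCKDHA and BCKDHB and whose core is the transacylase DBT. GNMT passes the methyl group of S-adenosylmethionine to glycine. Proximal tubule cells of the kidney take up filtered amino acids and hold many enzymes of amino acid breakdown.

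RNA sequencing covered 17 kidney libraries: 7 labelled Gcgr shRNA, 6 labelled Ctr shRNA and 4 labelled WT. Gcgr encodes the glucagon receptor, and the design text describes a hairpin knockdown of it in proximal tubule epithelial cells. Titles of both shRNA groups carry DKD, in a series on diabetic kidney disease; the Ctr shRNA titles say Vehicle while their genotype says Ctr shRNA, so what those kidneys received is uncertain. The sources used here do not state the strain, the age, how diabetes was brought about or how the hairpin was given. A library is called by its group plus its title's number. Whether each came from a different animal is not stated either, so every p-value reflects variation among libraries that may be technical.

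The reads behind the table summed to 13997657 to 17107876 per library, and 12183 to 12919 genes reached 1 FPKM (fragments per kilobase of gene length, adjusted for library size). Gcgr went against its label: it averaged 13.02 ± 1.70 FPKM in the libraries labelled Gcgr shRNA (SD, n = 7), 9.74 ± 2.14 FPKM in the Ctr shRNA libraries (SD, n = 6) and 20.8 ± 2.42 FPKM in the WT libraries (SD, n = 4). Its mean in the libraries labelled Gcgr shRNA exceeded that in Ctr shRNA by 0.40 on the log2(FPKM + 1) scale (two-sided exact permutation p = 0.00816). Without Ctr shRNA 20, the lowest of its group at 5.89 FPKM, the difference was 0.28, and the permutation test was not run. With limma over all genes, Gcgr did not pass in Gcgr shRNA against Ctr shRNA (adjusted p = 0.413), and no gene did. Against WT, Gcgr was lower in the libraries labelled Gcgr shRNA (-0.64, limma adjusted p = 0.0238) and in Ctr shRNA (-1.04, limma adjusted p = 0.000437). The library Ctr shRNA 20 stood apart, with fat cell and bladder lining markers: Adipoq was 45.3 FPKM there and at most 2.43 FPKM elsewhere, and Upk3a was 56.8 FPKM there and at most 3.23 FPKM elsewhere. Values without it are given beside some of the results it touches. The 14 markers of proximal tubule, the main cell type of the kidney cortex, summed to at least 15215 FPKM in every library. Ctr shRNA 20 was the lowest for them and for thick ascending limb markers (419 FPKM). It was the highest for principal cell markers, at 986 FPKM against at most 484 FPKM elsewhere. Liver markers summed to 26.3 to 49.7 FPKM in the libraries labelled Gcgr shRNA, 18.9 to 43.1 FPKM in Ctr shRNA and 20.4 to 28.6 FPKM in WT, and Cps1, a urea cycle enzyme gene of liver, was at 0 FPKM in every library.

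The promoters of Hpd, Bcat1 and Gnmt, the members that differed most between groups, are shown as the 250 bases upstream of the start in RefSeq (GRCm38.p6), read 5′ to 3′ on the minus strand, at chr5:123182724-123182973 for Hpd, chr6:145076158-145076407 for Bcat1 and chr17:46729166-46729415 for Gnmt. Capitals mark 3 general promoter motifs, the first being the sequence GGGCGG. The next is TATAAA, found near many transcription starts. The last is the CCAAT motif, which in these promoters is read as ATTGG because it lies on the other strand.
Hpd: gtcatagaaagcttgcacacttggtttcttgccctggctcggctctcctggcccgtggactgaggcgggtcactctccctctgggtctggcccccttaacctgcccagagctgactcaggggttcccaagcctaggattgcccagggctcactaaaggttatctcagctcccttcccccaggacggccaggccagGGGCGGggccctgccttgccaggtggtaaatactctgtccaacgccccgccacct
Bcat1: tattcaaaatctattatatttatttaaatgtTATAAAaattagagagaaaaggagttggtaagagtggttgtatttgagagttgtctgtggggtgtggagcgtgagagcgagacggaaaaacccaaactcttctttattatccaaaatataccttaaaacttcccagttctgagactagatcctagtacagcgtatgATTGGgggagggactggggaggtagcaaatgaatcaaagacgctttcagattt
Gnmt: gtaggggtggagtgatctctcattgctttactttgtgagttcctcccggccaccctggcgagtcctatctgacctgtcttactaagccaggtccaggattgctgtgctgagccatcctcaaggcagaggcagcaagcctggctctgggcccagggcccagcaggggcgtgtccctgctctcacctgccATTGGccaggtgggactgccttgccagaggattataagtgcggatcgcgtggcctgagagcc
No motif was common to all 3 promoters: Hpd held GGGCGG, Bcat1 held both TATAAA and the CCAAT motif, and Gnmt held the CCAAT motif. A window before another RefSeq start of Bcat1, inside the gene, held none of them. Over 32851 mouse promoter windows of this length, counting both strands, GGGCGG was found in 32.7%, TATAAA in 12.4% and CCAAT in 33.8%. Of the members, 8 had a window in the RefSeq table, and Dbt had none. The cAMP response element TGACGTCA (in 1.55% of all windows), its core TGACG which lies within it (17.8%), the HNF4 motif CAAAGTCCA (0.384%), the palindromic HNF1 motif (0.00913%) and the palindromic glucocorticoid response element (0.00913%) were in no member's window. The 3 motifs in capitals were chosen after the other 5 had been searched. CpG counts were 7 for Hpd, 5 for Bcat1 and 6 for Gnmt, against a median of 6 over all windows.

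The enzyme that starts the ring-opening steps of tyrosine breakdown, Hpd, was the member with the largest difference between Ctr shRNA and WT libraries, whereas Hgd, the next enzyme, had nearly the same mean in both. Hpd (ENSMUSG00000029445, chr5:123171807-123182727, minus strand, GRCm38) was 10.3, 21.3 and 29.5 FPKM at the lowest, median and highest of the libraries labelled Gcgr shRNA, 3.85, 10.01 and 20.6 FPKM in the Ctr shRNA libraries, and 42.2, 34.9, 35.3 and 46.0 FPKM in WT 37, 38, 39 and 41. Every WT library lay above every library of both shRNA groups, while the libraries labelled Gcgr shRNA and the Ctr shRNA libraries overlapped, with 4 of the 7 above the highest Ctr shRNA library. On the log2(FPKM + 1) scale, used for every fold change here and lower than the true change for genes at low levels, Hpd differed by -2.05 ± 0.35 (SE) in Ctr shRNA against WT, by 1.08 ± 0.30 in Gcgr shRNA against Ctr shRNA, and by -0.97 ± 0.34 in Gcgr shRNA against WT. Without Ctr shRNA 20, the first was -1.88 and the second 0.91. Psmd9, a proteasome gene on the other strand, overlaps Hpd and averaged 4.37 FPKM in Gcgr shRNA, 3.72 FPKM in Ctr shRNA and 4.75 FPKM in WT.

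Homogentisate dioxygenase, Hgd (ENSMUSG00000022821, chr16:37580153-37632020, plus strand), was among the more abundant members, at 144.9, 169 and 187 FPKM (lowest, median and highest) in the libraries labelled Gcgr shRNA, 107, 161 and 191 FPKM in Ctr shRNA and 166, 170.0, 149 and 151 FPKM in WT 37, 38, 39 and 41. All 3 groups overlapped, and the lowest value was that of Ctr shRNA 20. Its fold changes were -0.02 ± 0.12 in Ctr shRNA against WT, 0.10 ± 0.11 in Gcgr shRNA against Ctr shRNA and 0.08 ± 0.12 in Gcgr shRNA against WT (log2, SE). Without Ctr shRNA 20, the first was 0.08 and the second -0.007, so both changed sign. Fah (ENSMUSG00000030630, chr7:84585159-84606722, minus strand), the last enzyme of the chain, was 169, 189 and 232 FPKM in the libraries labelled Gcgr shRNA, 113, 189 and 200.1 FPKM in Ctr shRNA and 236, 231, 209 and 222 FPKM in WT. No Ctr shRNA library reached the WT range, and the libraries labelled Gcgr shRNA spanned both. Its log2 fold changes were -0.40 ± 0.14 in Ctr shRNA against WT, 0.23 ± 0.12 in Gcgr shRNA against Ctr shRNA and -0.17 ± 0.14 in Gcgr shRNA against WT (SE). The first was -0.28 and the second 0.12 without Ctr shRNA 20.

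**Figure D1:**
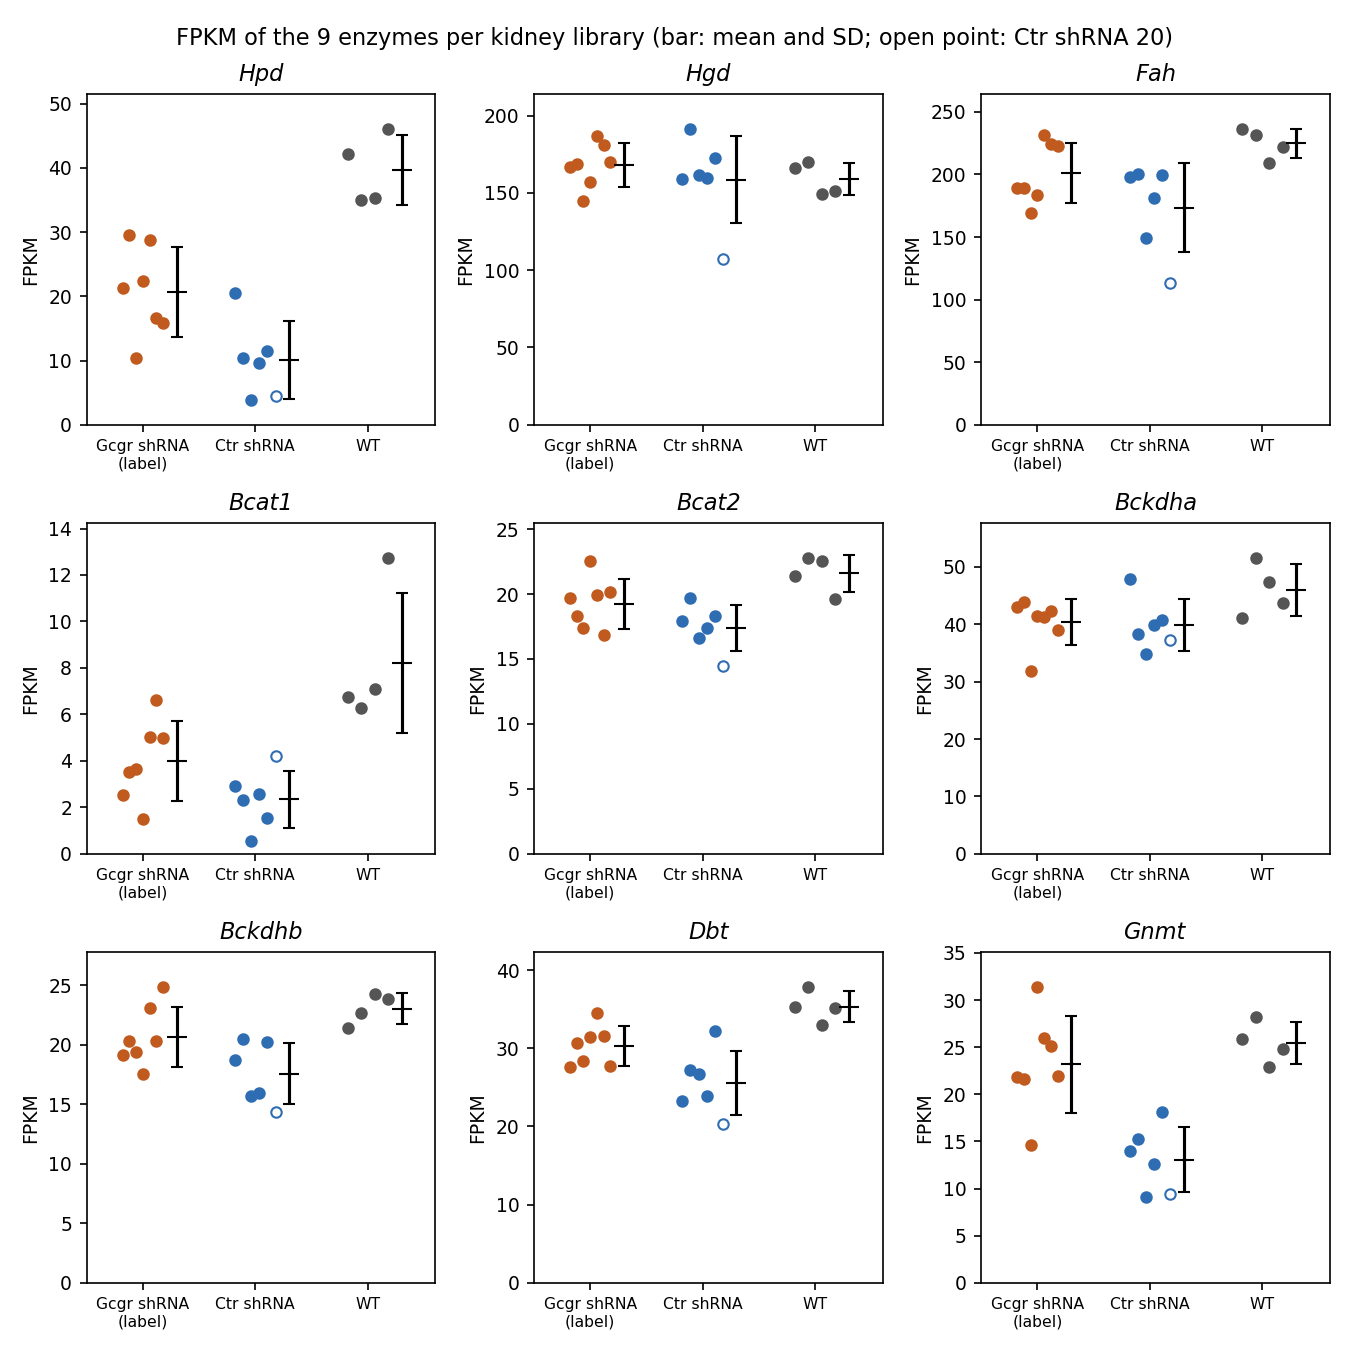
Level of each of the 9 members in FPKM (linear axis from 0), 1 point per library, with libraries labelled Gcgr shRNA on the left, Ctr shRNA in the middle and WT on the right; bars are the mean and SD, and the open point is Ctr shRNA 20. For Hpd, the 4 WT libraries sit between 34.9 and 46.0 FPKM, above all others, whereas for Hgd the groups overlap.

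The ratio of the homogentisate enzyme to the enzyme before it differed between the groups, as the values of Hpd did. The Hgd to Hpd ratio of FPKM, which is per length of gene, had a median of 7.84 (5.72 to 14.0) in the libraries labelled Gcgr shRNA, 17.5 (7.74 to 41.8) in Ctr shRNA and 4.08 (3.29 to 4.87) in WT. The Fah to Hpd ratio had medians of 8.89 (6.41 to 16.4) in Gcgr shRNA, 19.03 (9.63 to 38.8) in Ctr shRNA and 5.76 (4.82 to 6.63) in WT. No WT library had a ratio as high as the lowest library of either shRNA group for Hgd to Hpd, and the 2 shRNA groups overlapped.

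Of the branched-chain enzymes, the cytosolic transaminase gene Bcat1 had the largest difference between groups, and the dehydrogenase subunit genes had smaller ones. Bcat1 (ENSMUSG00000030268, chr6:144993835-145076184, minus strand) was 1.49, 3.65 and 6.63 FPKM at the lowest, median and highest of the libraries labelled Gcgr shRNA, 0.561, 2.43 and 4.20 FPKM in Ctr shRNA, and 6.76, 6.26, 7.10 and 12.7 FPKM in WT 37, 38, 39 and 41. Every Ctr shRNA library lay below every WT library, and WT 41 stood above the others of its group. Its log2 fold changes were -1.50 ± 0.32 in Ctr shRNA against WT, 0.58 ± 0.27 in Gcgr shRNA against Ctr shRNA and -0.92 ± 0.31 in Gcgr shRNA against WT (SE). The first was -1.30 without WT 41 and -1.65 without Ctr shRNA 20. Bcat2 (ENSMUSG00000030826, chr7:45570153-45589711, plus strand), the mitochondrial transaminase gene, was 16.8, 19.7 and 22.5 FPKM in Gcgr shRNA, 14.4, 17.6 and 19.7 FPKM in Ctr shRNA, and 21.4, 22.8, 22.6 and 19.6 FPKM in WT. The ranges of Ctr shRNA and WT met at their edges, and its log2 fold changes were -0.30 ± 0.09, 0.14 ± 0.08 and -0.16 ± 0.08 in the same order of comparisons. Without Ctr shRNA 20, the first was -0.25 and the second 0.09. An uncharacterised gene on the other strand, 0610005C13Rik, overlaps Bcat2 and had means of 39.5 FPKM in Gcgr shRNA, 37.8 FPKM in Ctr shRNA and 44.7 FPKM in WT, and since the use of strand in counting is not given, reads of these genes cannot be told apart. The Bcat2 to Bcat1 ratio had a median of 4.75 (2.53 to 15.1) in Gcgr shRNA, 7.65 (3.44 to 29.6) in Ctr shRNA and 3.17 (1.54 to 3.64) in WT.

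**Figure D2:**
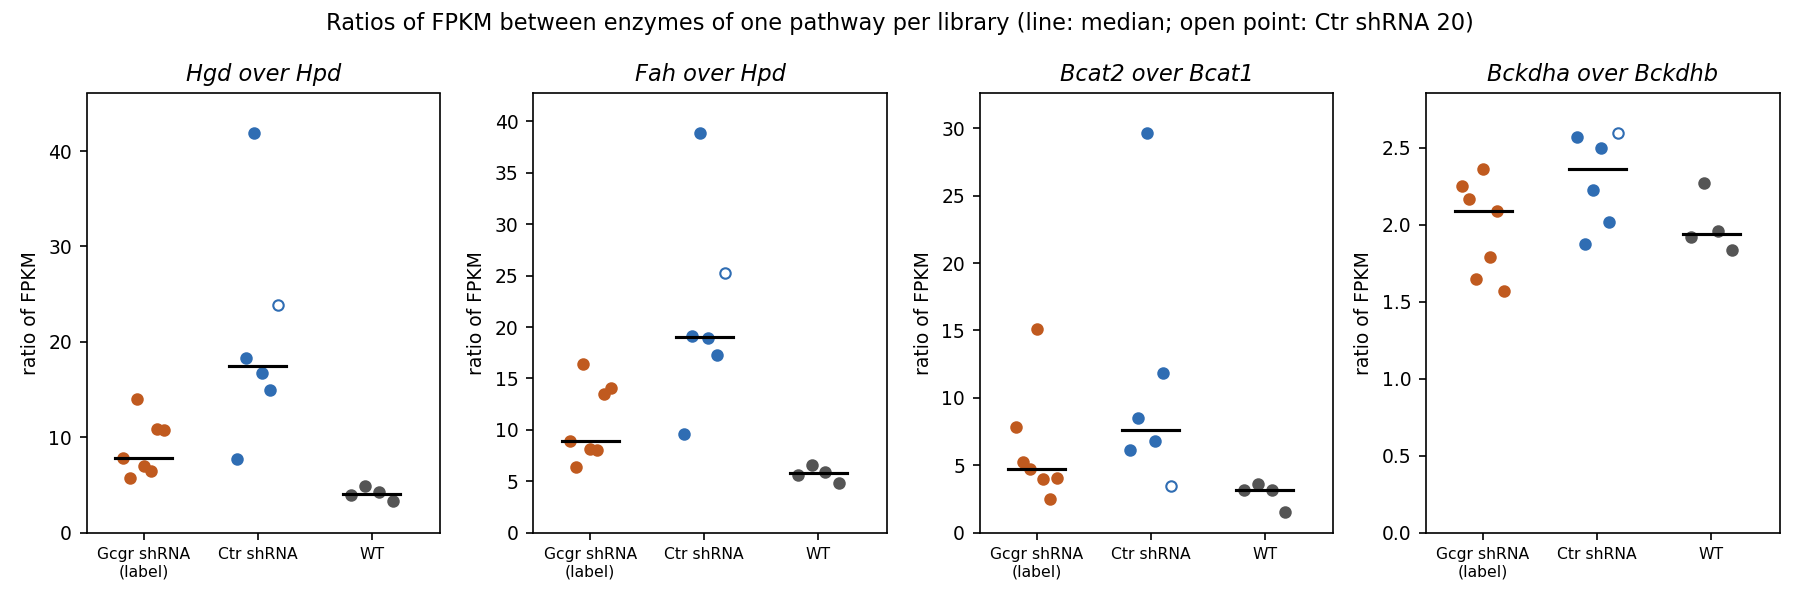
Ratios of FPKM between pairs of members in each library (linear axis from 0), with libraries labelled Gcgr shRNA on the left, Ctr shRNA in the middle and WT on the right; the line is the median. The Hgd to Hpd ratio is 3.29 to 4.87 in WT libraries, below every library of the shRNA groups, while Bckdha to Bckdhb has medians of 2.09, 2.36 and 1.94 in the 3 groups.

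The genes for the branched-chain dehydrogenase complex differed less. Bckdha (ENSMUSG00000060376, chr7:25629946-25658981, minus strand), the alpha subunit of the decarboxylase, was 31.9, 41.4 and 43.9 FPKM in the libraries labelled Gcgr shRNA, 34.8, 39.1 and 48.0 FPKM in Ctr shRNA, and 41.1, 51.6, 47.4 and 43.7 FPKM in WT, with all groups overlapping. Its partner subunit Bckdhb (ENSMUSG00000032263, chr9:83925145-84124240, plus strand) was 17.5, 20.3 and 24.8 FPKM in Gcgr shRNA, 14.4, 17.3 and 20.4 FPKM in Ctr shRNA, and 21.4, 22.7, 24.2 and 23.8 FPKM in WT. Dbt (ENSMUSG00000000340, chr3:116513070-116549981, plus strand), the transacylase core, was 27.6, 30.7 and 34.6 FPKM in Gcgr shRNA, 20.4, 25.3 and 32.2 FPKM in Ctr shRNA, and 35.3, 37.8, 33.0 and 35.2 FPKM in WT. For Bckdhb and Dbt no Ctr shRNA library reached the lowest WT library. In Ctr shRNA against WT, the log2 fold change was -0.20 ± 0.10 for Bckdha, -0.38 ± 0.10 for Bckdhb and -0.46 ± 0.10 for Dbt, and in Gcgr shRNA against Ctr shRNA it was 0.02 ± 0.08, 0.23 ± 0.09 and 0.24 ± 0.09 for the same genes (SE). Without Ctr shRNA 20, Bckdhb was at -0.33 and Dbt at -0.40 in the first comparison. In the second they were at 0.17 and 0.18.

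Gnmt (ENSMUSG00000002769, chr17:46725664-46729168, minus strand), the glycine methyltransferase gene, had its lowest mean in the Ctr shRNA libraries, and its mean in those labelled Gcgr shRNA was closer to WT. It was 14.6, 21.9 and 31.4 FPKM at the lowest, median and highest of the libraries labelled Gcgr shRNA, 9.07, 13.3 and 18.1 FPKM in Ctr shRNA, and 25.9, 28.2, 22.9 and 24.8 FPKM in WT 37, 38, 39 and 41. Of the 7 libraries labelled Gcgr shRNA, 6 lay above every Ctr shRNA library, 4 lay below the lowest WT library and 2 lay within the WT range. Ctr shRNA and WT did not overlap. Its log2 fold changes were -0.94 ± 0.19 in Ctr shRNA against WT, 0.79 ± 0.16 in Gcgr shRNA against Ctr shRNA and -0.15 ± 0.18 in Gcgr shRNA against WT (SE); without Ctr shRNA 20 the first was -0.86 and the second 0.71.

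**Figure D3:**
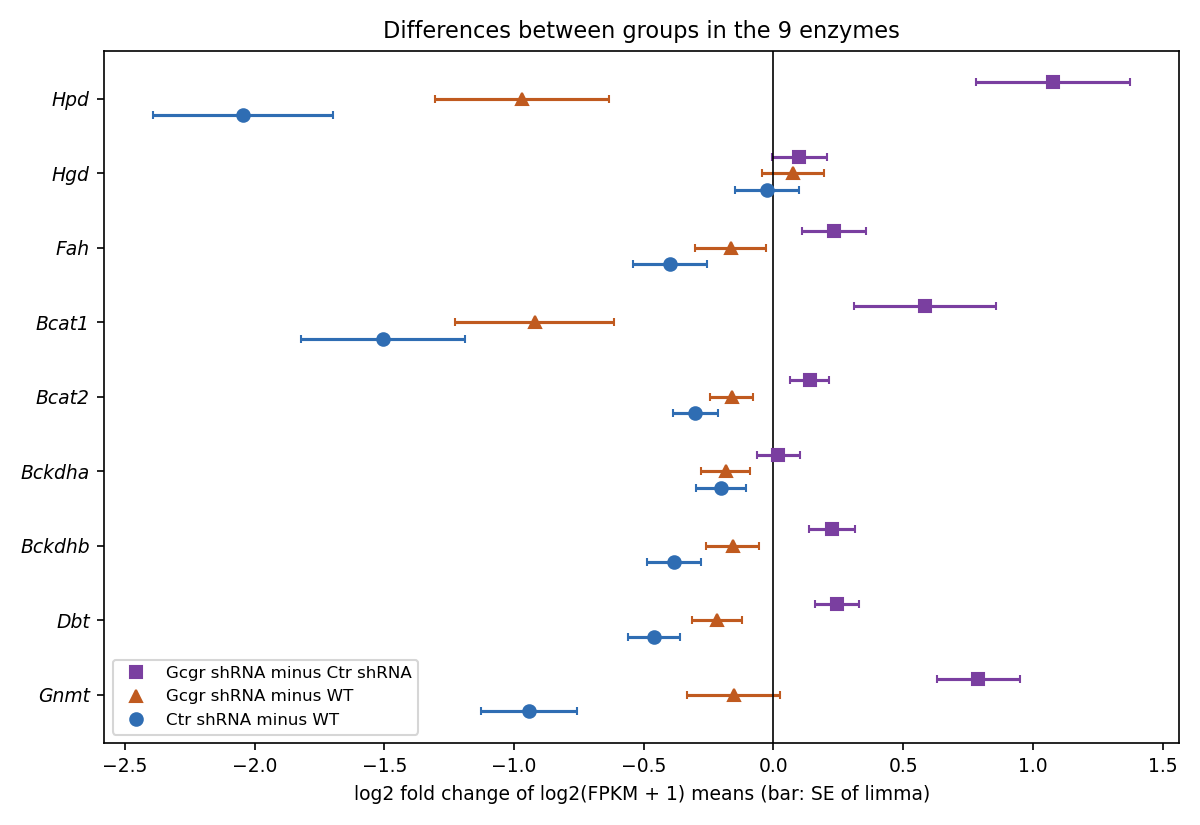
Log2 fold change of each member with its standard error in the comparisons Gcgr shRNA minus Ctr shRNA, Gcgr shRNA minus WT and Ctr shRNA minus WT, each with its own symbol. Hpd lies farthest from 0 in Ctr shRNA minus WT, at -2.05, and Hgd lies near 0 in all 3.

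Among the 13279 genes tested with limma (Benjamini-Hochberg over all of them, threshold 0.05), 6 of the 9 members were lower in Ctr shRNA than in WT (Hpd, Bcat1, Bcat2, Bckdhb, Dbt and Gnmt) and none was higher, where 3.91% of all genes passed as lower and 3.58% as higher. An unadjusted p under 0.05 was reached by 7 of the 9, against 23.4% of all genes, and 6 of the 9 had Ctr shRNA libraries all below WT, against 5.41% of all genes (4.71% had them all above). Nothing is read from this count, since the members were chosen with these values known. All 9 had passed the filter on low values. Without Ctr shRNA 20, and likewise without Ctr shRNA 6 or 8 or WT 37, 38 or 39, the count was 4 (Bcat1, Dbt, Gnmt and Hpd). Bcat2 alone no longer passed without Ctr shRNA 1 or Gcgr shRNA 13, 15, 32 or 35, and Bckdhb alone without WT 41. In Gcgr shRNA against Ctr shRNA, none of the 9 passed, as none of all genes did (0%); 5 members and 972 genes (7.32%) had an unadjusted p under 0.05, and voom, run on reads recovered from the table, called none. All 9 members had a fold change above 0 there, with a median of 0.23 against -0.004 over all genes. Without Ctr shRNA 20 the median was 0.17 and Hgd was below 0, at -0.007. Bckdha, at only 0.02, changed sign in 5 of the 25 alternatives. The 2 shRNA groups overlapped for all 9 members, and all libraries of one lay below the other for 0.0979% of all genes and above for 0.105%. In Gcgr shRNA against WT none of the 9 passed, against 2.02% of all genes (1.42% higher and 0.595% lower), with a median of -0.17 and 8 of the 9 below 0. There 3 members had an unadjusted p under 0.05, against 16.2% of all genes, and 1 (Hpd) had all libraries below WT, against 2.23% of all genes (3.31% had them all above). The comparisons share libraries, so their values are not independent.

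Some libraries were the lowest of their group for several members, though not for all. Ctr shRNA 20 was the lowest of its group for 5 members (Hgd, Fah, Bcat2, Bckdhb and Dbt) and the highest for Bcat1. Ctr shRNA 6 was the lowest for the other 4 (Hpd, Bcat1, Bckdha and Gnmt). Gcgr shRNA 29 was the lowest of its group for 5 members (Hpd, Hgd, Fah, Bckdha and Gnmt). Gcgr shRNA 31 was the lowest for Bcat1 and Bckdhb and the highest for Bcat2 and Gnmt. Over the 17 libraries, after taking out group means, Pearson's r of log2 values had a median of 0.43 over the 36 pairs of members, from -0.52 for Bcat1 with Bcat2 to 0.89 for Hgd with Fah, and a median of 0.31 without Ctr shRNA 20. These libraries share depth and composition, and the median over pairs of other genes was not computed, so r is a description. Ordered by level in WT, Fah was the highest member, followed by Hgd, then Bckdha, Hpd, Dbt, Gnmt, Bckdhb, Bcat2 and last Bcat1. In that order the ranges of Hpd overlapped those of its neighbours Bckdha and Dbt, and the ranges of Bckdhb overlapped those of its neighbours Gnmt and Bcat2, while the other neighbours did not overlap.

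Proximal tubule markers, like those of some other cells given below, differed in the same directions. Of 14 tested, 7 fell in Ctr shRNA against WT, and the median over the list was -0.54 on the log2 scale (5 and -0.44 without Ctr shRNA 20); in Gcgr shRNA against Ctr shRNA none passed and the median was 0.14; in Gcgr shRNA against WT 1 passed (3 without Ctr shRNA 20) and the median was -0.31. The summed level of the proximal tubule markers ranged from 20975 to 43557 FPKM in the libraries labelled Gcgr shRNA, 15215 to 34211 FPKM in Ctr shRNA and 32063 to 43515 FPKM in WT. In bulk kidney, fewer proximal tubule cells and less RNA per cell cannot be told apart, and the part of these markers in the members' values was not tested. With the mean of these markers, after taking out group means, r over the 17 libraries was 0.77 for Dbt and 0.70 for Hgd but 0.20 for Hpd and -0.17 for Bcat1. The other members lay between, from 0.22 for Bckdha to 0.63 for Fah. Without Ctr shRNA 20, r was 0.67 for Dbt, 0.55 for Hgd, -0.03 for Hpd and 0.05 for Bcat1. Among markers of other cells in Ctr shRNA against WT, those that passed were lower for 3 of 6 tested in the thick ascending limb, 1 of 4 in the distal convoluted tubule, and 4 of 6 each in principal and intercalated cells. Macrophage markers had 2 of 7 higher and 1 lower, with a median of 0.54, and none passed of 4 podocyte, 5 endothelial, 3 fat cell, 3 bladder lining and 4 liver markers. The macrophage markers summed to 96.1 to 168 FPKM in the libraries labelled Gcgr shRNA, 69.2 to 170.0 FPKM in Ctr shRNA and 68.0 to 90.4 FPKM in WT, and their part in the members' values was not tested either.

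Other genes of the same pathways, 63 listed by their known roles, were mostly lower in Ctr shRNA than in WT where they moved at all. The lists were drawn up with earlier results of these data known, so the counts and p-values of these genes are a description too. Of the 57 tested, 13 fell and 1 rose (24.6% passed, against 7.49% of all genes), and the median log2 fold change was -0.15. The 27 tested branched-chain genes had 8 that fell and none that rose (median -0.26), the 20 methyl group genes 3 that fell (median -0.12), and the 10 tyrosine genes 2 that fell and 1 that rose (median -0.01). Without Ctr shRNA 20, these medians were -0.17, -0.05 and 0.08. Abat, the transaminase of GABA and beta-alanine, averaged 25.2 ± 4.95 FPKM in Ctr shRNA and 49.4 ± 2.48 FPKM in WT (SD, n = 6 and 4; log2 fold change -0.96 ± 0.12, limma adjusted p = 0.000198). Also lower were the leucine breakdown genes Mccc2 (-0.62 ± 0.10, limma adjusted p = 0.00108) and Ivd (-0.72 ± 0.12, limma adjusted p = 0.0019), and Ppm1k, the phosphatase that activates the branched-chain dehydrogenase, at 3.59 ± 0.667 FPKM in Ctr shRNA and 6.03 ± 0.544 FPKM in WT (limma adjusted p = 0.00227). The same held for Ahcy, which clears S-adenosylhomocysteine (-0.78 ± 0.15, limma adjusted p = 0.00551), and for Oxct1, which uses ketone bodies (-0.75 ± 0.15, limma adjusted p = 0.0075). The count of 14 was 8 without WT 37, 38 or 39, 9 without WT 41 or Ctr shRNA 6, and 12 without Ctr shRNA 20. The transaminase that starts tyrosine breakdown, Tat, was near 0 FPKM in all libraries and was among the 6 listed genes that were not tested.

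In the libraries labelled Gcgr shRNA against Ctr shRNA, none of the 57 passed, and 40 had a fold change above 0 (median 0.08). The smallest p-values were those of Abat (34.1 ± 3.90 FPKM in Gcgr shRNA against 25.2 ± 4.95 FPKM in Ctr shRNA, limma adjusted p = 0.221), Oxct1 (290.7 ± 39.9 against 213 ± 51.3 FPKM, adjusted p = 0.332) and Mccc2 (29.03 ± 2.95 against 23.7 ± 3.26 FPKM, adjusted p = 0.34). Against WT, 2 of the 57 fell in the libraries labelled Gcgr shRNA (3.51%, where 0.595% of all genes passed as lower). Ppm1k averaged 3.71 ± 0.532 FPKM in Gcgr shRNA and 6.03 ± 0.544 FPKM in WT (log2 fold change -0.58 ± 0.10, limma adjusted p = 0.00696). Abat was -0.53 ± 0.12 (limma adjusted p = 0.0249), a call that ended, with adjusted p up to 0.102, without WT 37, 38 or 39 or without Gcgr shRNA 13 or 35. The count of 2 was then 1, and it was 4 without Ctr shRNA 20.

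**Figure D4:**
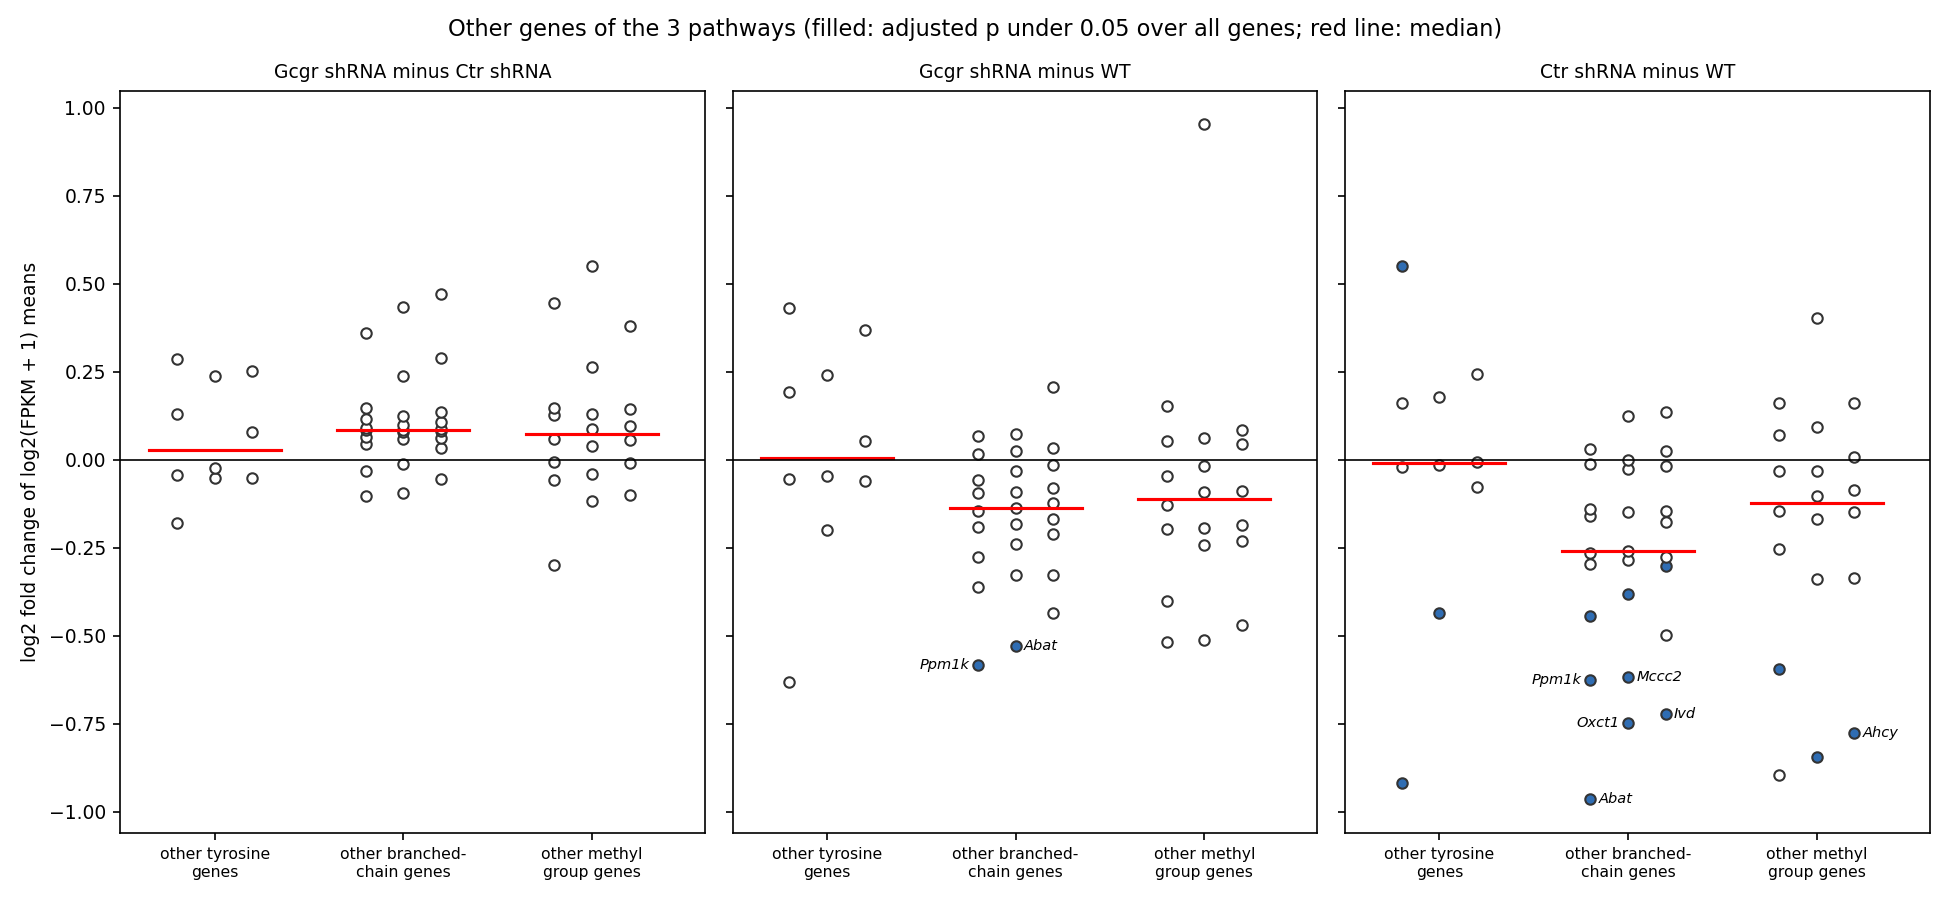
Log2 fold change of the 57 other pathway genes, 1 point per gene in 3 lists, in Gcgr shRNA minus Ctr shRNA, Gcgr shRNA minus WT and Ctr shRNA minus WT; filled points have an adjusted p under 0.05 over all genes and the red line is the list's median. The branched-chain list has medians of 0.09, -0.14 and -0.26 in the 3 panels.

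The genes whose levels followed Hpd most closely over the 17 libraries were Cyp2d9 (Pearson's r = 0.94), Kyat3 (0.91), Zfyve21 (0.91), Papss2 (0.91) and Epop (0.90), out of 12444 genes with a mean of at least 1 FPKM. Cyp2d9 belongs to a multigene family whose reads may be split, so its value is uncertain. For Bcat1 they were Becn1 (0.88), Pigt (0.86), Skiv2l (0.82), Lpl (0.82) and Ndrg2 (0.82). These r values are descriptions, since the groups differ in both genes of each pair and the genes were picked for their r. After taking out group means, r with Hpd ran from 0.71 for Epop to 0.87 for Cyp2d9. With Bcat1 it ran from 0.47 for Ndrg2 to 0.74 for Becn1.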

How the data were processed

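Kidney RNA was taken up in Trizol and sequencing libraries were built using the SMARTer mRNA-Seq kit, according to the labels' protocols. The authors deposited FPKM for each gene and library in 1 table, which also lists lengths and positions, per the file headers. Which aligner and counter were run, and whether strand was used, is not given in the sources used here. The build was GRCm38 (mm10), per the submitters' processing notes, and 98.1% of the 42741 gene IDs present in GENCODE for that build had identical positions. 1 incomplete line was left out. Multiplied by length, low values were whole multiples of a step in 100% of cases (tolerance 0.05 of a step), which gave the recovered reads. Size factors computed from the FPKM were equal in all libraries, so the deposited values already carried such a scaling.

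limma 3.58.1 (R 4.3.3) was fitted with trend to log2(FPKM + 1) over all 3 groups, on 13279 genes with at least 1 FPKM in at least 4 libraries, with a Benjamini-Hochberg threshold of 0.05. The method was tested on simulated data. No pair of replicate libraries agreed within sampling noise (chi-square per degree of freedom of 7.06 to 77.8, 42 pairs), so none was treated as a copy of another, which does not show that they came from separate animals. The 9 members and the gene lists were chosen with earlier results of these data known. Named pathway genes were up to 8 with the smallest passing p per comparison, or 3 where none passed; some of those genes are not reported here, though the counts include them. Alternatives covered the pseudocount, filter, scaling, trend, groups fitted, voom and each library left out; scaling to the sum of recovered reads was added after the data were seen.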

Additional observations from a re-analysis of the deposited data

Results flagged for a closer look

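2 of the 48 groups of values checked held a library far from the rest of its group, where chance gives about 1 in 20. Bcat1 was 12.7 FPKM in WT 41, and the next WT library was at 7.10 FPKM. Bckdha was 31.9 FPKM in Gcgr shRNA 29, and the next lowest library of that group was at 38.9 FPKM.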

How the results depend on the processing

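With no filter on low values, 597 of all genes and 9 other pathway genes passed in Ctr shRNA against WT, and 155 and 1 in Gcgr shRNA against WT. With a pseudocount of 0.1 or with only the 2 groups fitted, 1 gene passed in Gcgr shRNA against Ctr shRNA, and with only the 2 groups 444 genes, 1 member (Hpd) and 6 pathway genes passed in Gcgr shRNA against WT. Scaling to the sum of recovered reads (added after the data were seen) and voom each gave 5 pathway genes there, and leaving out Ctr shRNA 20 and Gcgr shRNA 31 together gave 4. The causes were not tested. Leaving out 1 library gave 456 to 1264 genes, 8 to 18 pathway genes and 4 to 6 members in Ctr shRNA against WT, 0 to 3 genes in Gcgr shRNA against Ctr shRNA, and 103 to 348 genes and 1 to 4 pathway genes in Gcgr shRNA against WT. Of the members counted in Ctr shRNA against WT, a description since they were chosen on these values, Hpd, Bcat1, Dbt and Gnmt were counted under all 25 alternatives, whereas the call of Bcat2 ended in 13 and that of Bckdhb in 9 of them, and Fah passed in 2. Scaling by size factors is not a separate check, since they were equal in all libraries (1.005). Leaving out a Gcgr shRNA library changes the spread and the genes tested in Ctr shRNA against WT, but not the fold changes. No paired analysis was possible because the groups share no replicate numbers.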
